A study of Mus musculus with 8 samples.

Results

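The receptors for serotonin, adrenaline and noradrenaline, acetylcholine and histamine were examined in the striatum of newborn mice that lack the transcription factor Ctip2, listed under its current symbol Bcl11b. Members were all probe sets with a single gene symbol that begins with Htr, Adra or Adrb and a digit, that is a Chrm or Hrh receptor, or that is a Chrna, Chrnb, Chrnd, Chrne or Chrng subunit. The choice used names and no measured value, although earlier results of these data were known when it was made. It gave 65 probe sets of 37 genes, out of 45037 probe sets and 18193 genes with a probe set of 1 symbol. No beta-adrenergic receptor was among them, and these receptors were not analysed here.

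RNA was hybridised to 8 Affymetrix arrays, 1 animal each, from 4 Ctip2 null mice, 1 Ctip2 heterozygote and 3 wild type mice. All were of strain BALB/c at postnatal day 0, and all tissue came from punches of the middle of the striatum. The labels name no other allele, no treatment and no Cre driver, and the sources used here do not describe the deletion itself. The comparison asks which receptor messages differ when Ctip2, a zinc finger factor of medium spiny projection neurons, is missing from the animal. Values are RMA log2 values, so a difference of 1 is 2-fold, and a gene was called when limma's Benjamini-Hochberg adjusted p over all probe sets was under 0.05. The heterozygote is a single animal, entered no test, and is given as a value.

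Most of these receptors couple to G proteins: the receptors of the Htr1 class, Adra2c, Chrm4 and Hrh3 inhibit adenylyl cyclase, Htr4, Htr6, Htr7 and Hrh2 stimulate it, and the Htr2 class, Adra1b, Chrm1, Chrm3 and Hrh1 act through phospholipase C. Htr3a, Htr3b and the nicotinic subunits instead form ion channels opened by their transmitter. In the striatum acetylcholine comes from local cholinergic interneurons, whereas serotonin and histamine arrive in axons from the brainstem and hypothalamus.

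For 2 of the 3 receptor genes with a called probe set, RefSeq (GRCm38.p6) gave the 250 bases before the start of the gene. They are shown because these are the promoters of receptors whose message was lower in null striatum. Each runs 5′ to 3′ on the strand of its gene, with CG pairs in capitals. The Htr1b stretch lies at chr9:81633833-81634082 on the minus strand, holds 6 CG pairs and has a GC content of 52.4%. The Hrh1 stretch, the first listed of 4 starts, lies at chr6:114397686-114397935 on the plus strand, holds 21 CG pairs and has a GC content of 71.2%. Over all 32851 such stretches the medians were 6 CG pairs and 52.4% GC.
Htr1b: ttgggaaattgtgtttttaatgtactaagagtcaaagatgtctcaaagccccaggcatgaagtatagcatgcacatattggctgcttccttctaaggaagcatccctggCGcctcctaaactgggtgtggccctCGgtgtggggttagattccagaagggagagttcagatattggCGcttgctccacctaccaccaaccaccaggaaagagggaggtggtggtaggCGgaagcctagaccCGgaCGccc
Hrh1: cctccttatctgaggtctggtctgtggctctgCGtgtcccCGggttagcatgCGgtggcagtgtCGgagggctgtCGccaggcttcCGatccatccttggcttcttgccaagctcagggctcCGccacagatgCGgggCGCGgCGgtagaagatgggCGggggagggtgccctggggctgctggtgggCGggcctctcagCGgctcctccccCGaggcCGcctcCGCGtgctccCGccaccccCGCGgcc
Both were searched on either strand for TGACCA, a motif bound in human cells by BCL11A, the paralogue of Bcl11b. Neither printed stretch held it, nor did the stretches before the other Hrh1 starts. Of the 36 stretches of 28 receptor genes, 3 held the motif (1 each of Chrng, Htr1d and Adra1b), 8.33%, against 11.4% of the stretches of all genes. A match describes letters in a window and is not a binding site.

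Of the 65 receptor probe sets, 4 fell in null striatum and none rose. The 4 belong to 3 genes: Htr1b on both its probe sets, Chrm1 on 1 of 2 and Hrh1 on 1 of 2. They make up 6.15% of the receptor probe sets, where 0.453% of all probe sets were called lower and 1.87% were called higher. At an unadjusted limma p under 0.05, 10 receptor probe sets were lower and 2 higher, against 8.74% and 10.9% of all probe sets. The null arrays lay below every wild type array on 10 receptor probe sets (15.4%), from Htr1b, Chrm1 and Hrh1 (2 each), Chrm4, Hrh4, Htr2b and Chrna1. They lay above every wild type array on 3 (4.62%), from Htr7, Htr3a and Htr5a. Over all probe sets these shares were 8.85% below and 7.7% above. In bulk tissue, fewer cells of a type and less RNA per cell cannot be told apart, and this holds for every difference given here.

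The count of lower receptors depended on single animals. It was 0 without null 1, without null 2 or without wild type 3, 2 without null 3 or without wild type 2, 3 without null 4 and 5 without wild type 1. All 4 called probe sets kept a negative difference in each of these fits. This was fixed in advance, because every null array lay below every wild type array on all 4. Without null 4, Htr3a was called higher.

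Most of the receptor signals were dim. Of the 65 probe sets, 45 had a mean under 6.30, the median of all probe set means, and such probe sets tended to read lower in null arrays whatever their gene. Over the dim receptors the median difference was -0.18, where all dim probe sets had -0.13. Over the 20 brighter receptors it was -0.16, where all brighter probe sets had 0.01. All 65 together had a median of -0.18 and ranged between -1.53 and 0.76, with 81.5% of them negative, where all probe sets had a median of -0.08 and 62.0% were negative. Log2 values within an array had an SD of 1.90 to 2.05 in null arrays and 1.84 to 1.97 in wild type arrays, ranges that overlap. With that SD as a covariate the receptor median was -0.026 and that of all probe sets -0.014. The 4 called probe sets kept differences of -0.66 and -1.87 (Htr1b), -0.65 (Chrm1) and -0.86 (Hrh1) in that fit, which has fewer degrees of freedom, and none was called (adjusted p between 0.0522 and 0.118). The receptor median was also smaller in size without null 3 or wild type 2 (-0.12 in both fits), after quantile normalization (-0.11) and with the heterozygote as a control (-0.10), where all probe sets had -0.07, -0.06, -0.05 and -0.05. The part of brightness in the receptor values was not tested.

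**Figure D1:**
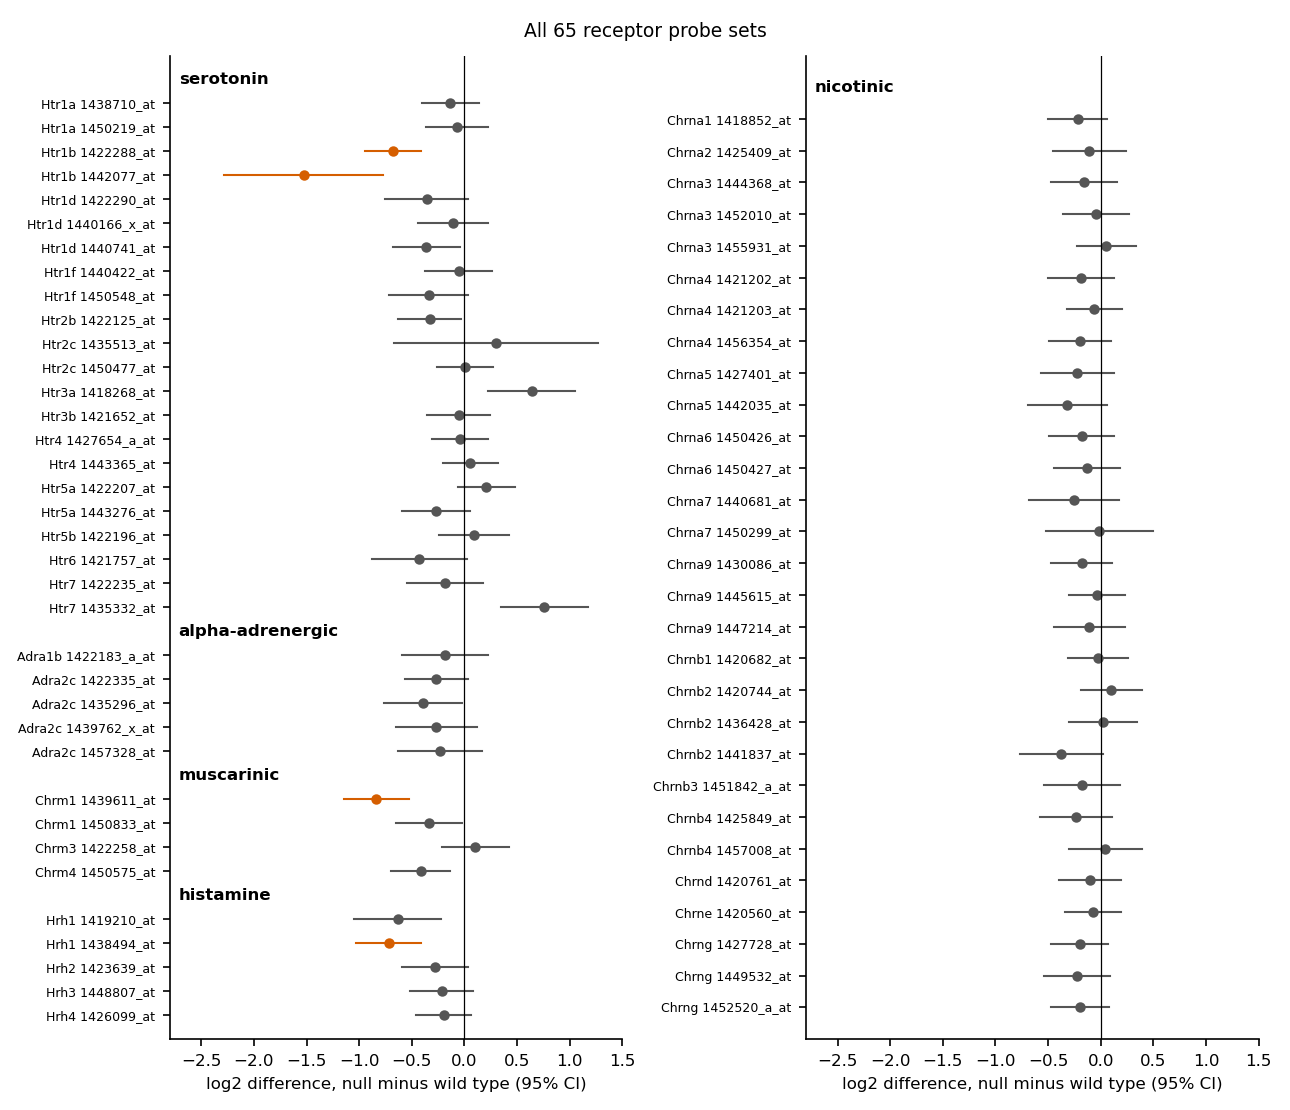
Log2 difference, null minus wild type, for each of the 65 receptor probe sets by family (points, with 95% confidence intervals from limma as bars; 4 null and 3 wild type arrays). The 4 probe sets called lower are in orange, and Htr7 and Htr3a are the ones farthest to the right.

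Among the serotonin receptors, Htr1b fell on both probe sets. Htr1b encodes an inhibitory receptor that in rodents sits on axon terminals, including those of striatal projection neurons. On probe set 1422288_at it read 7.23, 7.23, 7.30 and 7.45 in null striatum, against 8.06, 7.88 and 8.01 in wild type striatum. The groups were separated by a gap, and the heterozygote, at 7.98, lay within the wild type range. The null mean of 7.30 ± 0.10 (SD, n = 4) stood against 7.98 ± 0.09 (SD, n = 3) in wild type, a difference of -0.68 (SE 0.12, 95% CI -0.94 to -0.41), 1.60-fold lower (adjusted p = 0.0209). Without null 1, null 2, wild type 2 or wild type 3 the adjusted p was 0.0781, 0.0808, 0.0546 or 0.0898, with differences between -0.65 and -0.73.

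The other Htr1b probe set, 1442077_at, read 5.78, 5.17, 5.83 and 5.75 in null striatum, against 8.06, 6.38 and 7.04 in wild type striatum. All null arrays were below all wild type arrays, but the wild type animals were spread widely. The probe set was dim, with a mean of 6.28 over the 7 arrays, and no detection measure was at hand, so no fold is given. The heterozygote, at 8.76, exceeded every other array. Means were 5.63 ± 0.31 (SD, n = 4) in null and 7.16 ± 0.85 (SD, n = 3) in wild type striatum. The difference was -1.53 (SE 0.34, 95% CI -2.28 to -0.77, adjusted p = 0.0499). This adjusted p lies at the threshold: it was 0.101, 0.142, 0.0836, 0.0532 or 0.149 without null 1, null 2, null 3, null 4 or wild type 3, 0.0654 after quantile normalization, 0.102 after median centring, and 0.110 with the heterozygote counted as a control. The difference was -1.08 without wild type 1, the highest wild type animal.

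Htr7 and Htr3a differed the other way and were not called. Htr7, a receptor that stimulates adenylyl cyclase, is described because of its values, which were seen before it was picked. Its probe set 1435332_at read 6.97, 7.35, 7.81 and 7.38 in null striatum and 6.50 in the heterozygote, against 6.52, 6.73 and 6.60 in wild type. Every null array was above every other array, with a difference of 0.76 (95% CI 0.35 to 1.17, adjusted p = 0.0683). Its second probe set, 1422235_at, had a difference of -0.18 (adjusted p = 0.511). None of the 18 alternatives tried called Htr7 on 1435332_at (adjusted p between 0.0502 and 0.333).

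Htr3a, the serotonin-gated channel subunit carried by a class of GABAergic interneurons, was the serotonin receptor probe set of highest mean. It read 8.12, 8.16, 8.65 and 7.87 in null striatum and 7.69 in the heterozygote, against 7.39, 7.54 and 7.75 in wild type. The groups did not overlap, although null 4 was only just above wild type 3. Means were 8.20 ± 0.32 (SD, n = 4) in null and 7.56 ± 0.18 (SD, n = 3) in wild type striatum, a difference of 0.64 (95% CI 0.23 to 1.05, adjusted p = 0.113). Without null 4 the adjusted p was 0.0499. Of 9 measured interneuron markers, 2 rose: Calb2, a calcium-binding protein (difference 1.52), and Lhx6, a transcription factor of interneurons from the ganglionic eminence (difference 1.06). Npy, the neuropeptide of another interneuron class, had every null array below every wild type array without a call (difference -0.65, adjusted p = 0.131). Sst, Vip and Pvalb had -0.29, -0.23 and -0.22. Maf, Prox1 and Sp8 went the other way without a call, at 1.66 (adjusted p = 0.0700), 0.44 and 0.14. On Maf and Prox1 every null array was above every wild type array. At an unadjusted limma p under 0.05, 4 of the 9 were higher and 1 lower. Summed log2 levels of the 9 markers were 65.2 to 67.8 in null arrays and 62.4 to 63.4 in wild type arrays, and 3 of the 9 were dim. Their part in the Htr3a values was not tested.

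The other serotonin receptors gave no call. Htr2b, which acts through phospholipase C, had every null array below every wild type array (difference -0.33, adjusted p = 0.225). Htr6, a receptor of striatal neurons that stimulates adenylyl cyclase, had a mean of 4.73 ± 0.14 (SD, n = 4) in null and 5.16 ± 0.47 (SD, n = 3) in wild type striatum, a difference of -0.43 (adjusted p = 0.273). Without wild type 1 Htr6 was called lower (difference -0.68, adjusted p = 0.0496). The 3 probe sets of Htr1d, a close relative of Htr1b, had differences of -0.36, -0.36 and -0.11. Htr5a disagreed between its probe sets, at 0.21 and -0.27. The probe sets of Htr1a, Htr1f, Htr3b, Htr4 and Htr5b lay between -0.34 and 0.09.

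Htr2c, the receptor of choroid plexus epithelium and of some neurons, varied most among animals of 1 genotype. Its probe set 1435513_at read 6.85, 5.92, 7.11 and 6.92 in null striatum and 7.64 in the heterozygote, against 7.25, 6.69 and 5.26 in wild type. The difference of 0.30 had a 95% CI of -0.67 to 1.26, the widest among the serotonin receptors, and the groups overlapped fully. Ttr, the most abundant choroid plexus message, read 7.11, 13.44, 8.27 and 11.17 in null and 13.34, 9.38 and 11.44 in wild type arrays. None of the 10 choroid plexus markers measured was called, 1 was lower at an unadjusted limma p under 0.05, and 8 were dim. Their summed levels were 53.7 to 66.5 in null and 58.1 to 64.0 in wild type arrays. Their part in the Htr2c values was not tested. Leaving out null 2 and wild type 1, the arrays with most Ttr in each group, gave no receptor call.

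**Figure D2:**
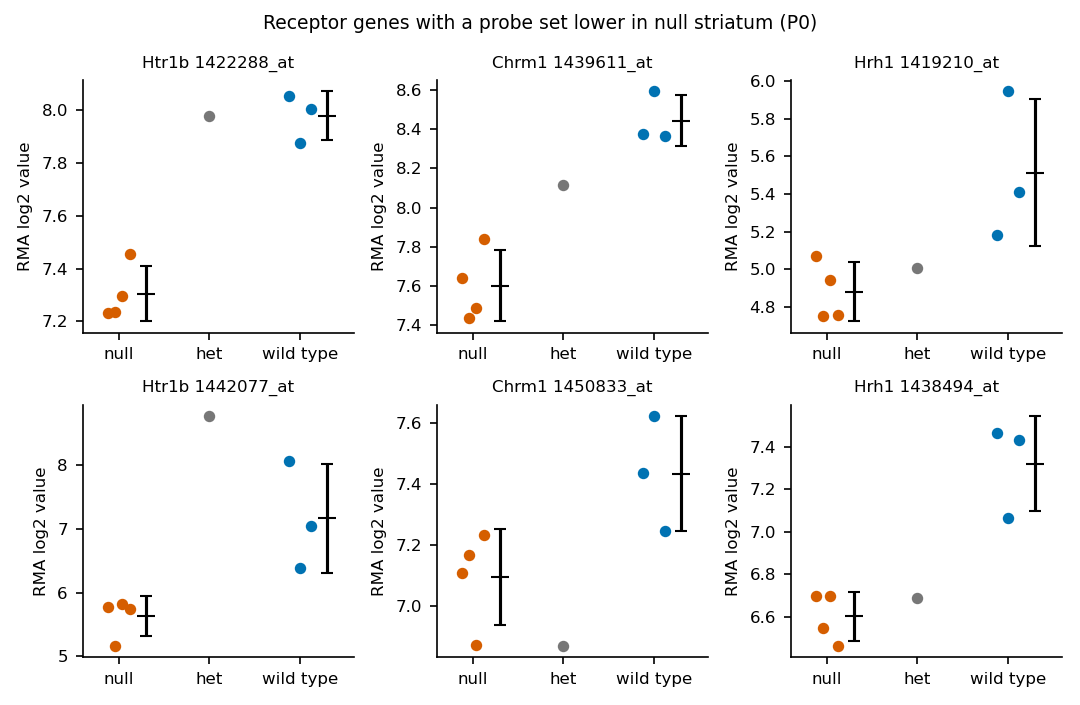
RMA log2 values by array for both probe sets of Htr1b, Chrm1 and Hrh1 (left to right in each panel: 4 null, 1 heterozygote and 3 wild type animals; points are animals, bars mean and SD where a group has over 1 animal). Null animals lie below all wild type animals in every panel, while the heterozygote lies near the wild type on Htr1b 1422288_at and near the null on Hrh1 1438494_at.

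Among the muscarinic receptors, Chrm1 fell. Chrm1 encodes the phospholipase C-coupled acetylcholine receptor that projection neurons of the mature striatum carry in both output pathways. Probe set 1439611_at read 7.64, 7.44, 7.49 and 7.84 in null striatum, against 8.37, 8.59 and 8.36 in wild type striatum. The groups did not overlap, and the heterozygote, at 8.12, lay between them. Means were 7.60 ± 0.18 (SD, n = 4) in null and 8.44 ± 0.13 (SD, n = 3) in wild type striatum, a difference of -0.84 (SE 0.14, 95% CI -1.15 to -0.53), 1.79-fold lower (adjusted p = 0.0169). Without null 1, null 2, wild type 2 or wild type 3 the adjusted p was 0.0540, 0.0608, 0.0713 or 0.0633, and it was 0.0539 with the heterozygote as a control.

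The other Chrm1 probe set, 1450833_at, gave 7.11, 7.17, 6.87 and 7.23 in null striatum, against 7.44, 7.62 and 7.25 in wild type striatum. The order of the groups was the same and they only just failed to overlap. Its difference of -0.34 was not called (95% CI -0.65 to -0.03, adjusted p = 0.230), and its heterozygote value of 6.87 equalled that of the lowest null animal to 2 decimals.

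Chrm4, the inhibitory receptor found mainly on the striatonigral projection neurons, had a dim probe set that read 4.83, 4.76, 4.86 and 4.85 in null striatum, against 5.05, 5.25 and 5.42 in wild type striatum. Every null array was below every wild type array, and the heterozygote, at 4.76, was at the null level. The difference of -0.42 (95% CI -0.70 to -0.14) was not called (adjusted p = 0.126). With array weights it was (adjusted p = 0.0272). Chrm3 read 5.55 ± 0.17 (SD, n = 4) in null and 5.45 ± 0.19 (SD, n = 3) in wild type striatum, a difference of 0.10. Chrm2 and Chrm5 were not analysed here.

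Of the 16 striatal projection neuron markers measured, 3 fell and 2 rose, and none was dim. Without adjustment the balance was the other way, with 7 higher and 3 lower at a limma p under 0.05. Ppp1r1b, the dopamine-regulated phosphatase inhibitor, was lower by a difference of -1.30, Pde10a, the striatal phosphodiesterase, by -1.04, and Drd1, the D1 class dopamine receptor, by -0.93. Gad1, a GABA-synthesising enzyme, and Zfp503, a striatal zinc finger gene, were higher by 1.41 and 1.30. The brightest of the markers, the transcription factors Foxp1 and Meis2, had differences of -0.22 and 0.57 and were not called. Summed levels of all 16 were 160.2 to 162.1 in null and 157.1 to 160.9 in wild type arrays, sums in which members of opposite sign offset each other. The part of cell number in the Htr1b and Chrm1 values was not tested.

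Among the histamine receptors, Hrh1 fell. Hrh1 encodes a phospholipase C-coupled receptor of neurons, astrocytes and endothelium. Probe set 1438494_at read 6.70, 6.55, 6.70 and 6.46 in null striatum, against 7.47, 7.06 and 7.43 in wild type striatum. The groups did not overlap, and the heterozygote, at 6.69, lay within the null range. Means were 6.60 ± 0.12 (SD, n = 4) in null and 7.32 ± 0.22 (SD, n = 3) in wild type striatum, a difference of -0.72 (SE 0.14, 95% CI -1.03 to -0.41), 1.65-fold lower (adjusted p = 0.0306). The adjusted p was 0.0758, 0.104 or 0.0514 without null 1, null 2 or null 3, 0.0501 or 0.132 without wild type 1 or wild type 3, 0.0754 after median centring, and 0.289 with the heterozygote counted as a control.

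The second Hrh1 probe set, 1419210_at, was dim and read 5.07, 4.75, 4.94 and 4.75 in null striatum, against 5.18, 5.95 and 5.41 in wild type striatum. The groups again did not overlap, with null 1 close to wild type 1. Its difference of -0.63 was near that of the first probe set but was not called (95% CI -1.05 to -0.22, adjusted p = 0.116). Without wild type 1 it was called (adjusted p = 0.0448). None of the 8 vascular markers measured was called, with 3 higher at an unadjusted limma p under 0.05 and summed levels of 58.6 to 61.9 in null and 57.3 to 59.4 in wild type arrays. Of 8 radial glia and astrocyte markers, 2 rose, the transcription factor Sox2 (difference 0.68) and the glutamate transporter Slc1a2 (difference 0.78), while the others lay between -0.25 (Gfap) and 0.51 (Hes5) without a call. At an unadjusted limma p under 0.05, 3 of these 8 were higher and none lower, with summed levels of 70.2 to 72.9 in null and 68.0 to 70.3 in wild type arrays. The part of vascular cells and glia in the Hrh1 values was not tested.

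The remaining histamine receptors also had negative differences and none was called. Hrh2, which stimulates adenylyl cyclase, was the histamine receptor probe set with the highest mean. It read 7.31, 7.03, 6.94 and 7.04 in null striatum, against 7.16, 7.37 and 7.54 in wild type striatum, and null 1 lay among the wild type animals (difference -0.28, adjusted p = 0.297). Hrh3, the inhibitory autoreceptor that projection neurons also carry, averaged 6.87 ± 0.16 (SD, n = 4) in null and 7.08 ± 0.13 (SD, n = 3) in wild type striatum, a difference of -0.21. Hrh4, known mainly from immune cells, was dim, with null arrays below wild type arrays (difference -0.20, adjusted p = 0.343).

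The alpha-adrenergic receptors were represented by Adra2c and Adra1b, and limma called none of their 5 probe sets. Adra2c encodes an inhibitory receptor that is abundant in the mature striatum. Its probe set of highest mean, 1422335_at, read 7.26, 7.23, 7.38 and 7.63 in null striatum, against 7.67, 7.72 and 7.54 in wild type striatum. Null 4 was the one null animal inside the wild type range, and the difference of -0.27 was not called (adjusted p = 0.288). Probe set 1435296_at read 6.77, 6.74, 6.43 and 7.10 in null striatum, against 6.99, 7.29 and 7.18 in wild type striatum. Again only null 4 overlapped, and the difference of -0.39 had an unadjusted p of 0.0391 and an adjusted p of 0.234. The other Adra2c probe sets, at -0.27 and -0.23, and that of Adra1b, at -0.18, were dim.

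The nicotinic subunits formed the largest family, with 29 probe sets of 15 genes, and limma called none of them, nor did any reach an unadjusted p under 0.05. Their differences lay between -0.37 and 0.10 with a median of -0.16, 25 of the 29 were negative, and 22 were dim. The median half-width of the 95% confidence intervals was 0.31, and none of the nicotinic differences could be told from 0. The smallest adjusted p was 0.273.

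Chrnb2, the beta subunit of the most widespread nicotinic receptors of the brain, had both the probe set of highest mean and that of largest difference. Probe set 1436428_at read 7.83, 7.86, 7.80 and 8.27 in null striatum, against 7.99, 7.85 and 7.92 in wild type striatum. Null 4 alone was high and the other animals of both groups lay close together (difference 0.02, adjusted p = 0.936). Probe set 1441837_at read 6.42, 6.25, 5.68 and 6.17 in null striatum, against 6.35, 6.59 and 6.56 in wild type striatum, with null 3 lowest and null 1 among the wild type animals (difference -0.37). Probe set 1420744_at had a difference of 0.10, so the 3 probe sets of Chrnb2 did not share a sign.

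Chrna4, the usual partner of Chrnb2, had differences of -0.19, -0.06 and -0.20 on its 3 probe sets. Chrna6 and Chrnb3, subunits found on dopaminergic axons and their cell bodies, had -0.18 and -0.13 for Chrna6 and -0.17 for Chrnb3. Chrna7, which forms channels of a single subunit kind, had -0.25 and -0.01. Probe sets of the muscle-type subunits Chrna1, Chrnb1, Chrnd, Chrne and Chrng lay between -0.23 and -0.02. On Chrna1 the null arrays were all below the wild type arrays, at 5.93 ± 0.05 (SD, n = 4) in null and 6.15 ± 0.19 (SD, n = 3) in wild type (adjusted p = 0.341). None of 7 skeletal muscle markers was called, with 1 lower at an unadjusted limma p under 0.05 and summed levels of 42.2 to 44.0 in null and 43.7 to 44.2 in wild type arrays.

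Agreement between probe sets of 1 gene was partial. Of the 20 receptor genes with several probe sets, 14 had all differences of 1 sign and 6 did not. Htr1b alone had every probe set called, and 1442077_at, one of them, was dim and at the threshold. The remaining 17 genes rest on a single probe set.

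The genes that make, carry and break down the 4 transmitters were read beside their receptors, each by its probe set of highest mean. Over the 66 genes of the 6 lists used, 6 rose and 2 fell, where 433 rose and 123 fell over all 18193 genes read in the same way. Over the serotonin supply list, 2 of 7 measured genes rose and none fell, with a median difference of 0.68, and the noradrenaline supply list gave the same counts and median because Ddc, Slc18a2 and Maoa are on both. The median over all genes was -0.08. Limma called none of the 8 acetylcholine supply genes (median -0.11, 1 lower at an unadjusted p under 0.05), and 4 of the 8 were dim. It called none of the 4 histamine supply genes (median -0.19, none at an unadjusted p under 0.05).

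Ddc, the decarboxylase that makes serotonin and dopamine, read 7.08, 7.39, 7.89 and 6.96 in null striatum and 6.35 in the heterozygote, against 5.70, 5.32 and 5.98 in wild type. The groups were far apart with the heterozygote between them, and the rise was 3.17-fold (difference 1.66, adjusted p = 0.0086). Its second probe set, which was not called, had a difference of -0.29. Slc18a2, the vesicular transporter of monoamines, read 4.93, 5.55, 5.69 and 4.30 in null striatum and 5.17 in the heterozygote, against 3.82, 3.41 and 3.78 in wild type. It rose by a difference of 1.45 (adjusted p = 0.0399), but it was dim on every array and no detection measure was at hand, so no fold is given. The adjusted p was 0.0812, 0.119, 0.0733, 0.163 or 0.129 without null 1, null 2, null 3, wild type 2 or wild type 3 and 0.393 with the heterozygote as a control.

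Th, which makes the precursor of dopamine and noradrenaline, read 8.55, 8.01, 9.47 and 8.03 in null striatum, against 7.05, 7.36 and 6.95 in wild type. The groups did not overlap but the difference of 1.39 was not called (adjusted p = 0.0551). Among genes specific to serotonin neurons, the differences were 0.03 for Tph2, the neuronal serotonin-synthesising enzyme, and -0.25 for Slc6a4, the serotonin transporter, neither called. Both were dim, as were 5 of the 7 serotonin supply genes, so a change in them could be missed. Serotonin axons arrive from the brainstem, which the punches did not sample, so these values do not describe the serotonin neurons themselves. Dbh, which makes noradrenaline, had -0.26. Maoa and Maob, which oxidise the amines, had 0.68 and 0.77 without a call. For acetylcholine, the synthesising enzyme Chat had a difference of 0.10, the choline transporter-like gene Slc44a1 0.34 and the hydrolase Bche -0.49. None of 6 cholinergic neuron markers measured was called, and 5 of them, Chat included, were dim, so a change in them could be missed. Only 1, Lhx8, was higher at an unadjusted limma p under 0.05, with overlapping groups (difference 1.34, adjusted p = 0.133). Summed levels of the 6 were 34.1 to 35.4 in null and 32.8 to 36.0 in wild type arrays. For histamine, the degrading enzymes Aoc1 and Hnmt had -0.25 and -0.21.

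Of the 13 nicotinic receptor accessory genes measured, Lypd6 alone was called, and it rose. Lypd6 encodes a membrane-anchored protein that binds nicotinic receptors. It read 7.002, 6.99, 7.23 and 7.13 in null striatum and 6.58 in the heterozygote, against 6.41, 6.23 and 6.29 in wild type. The groups were well apart, 1.71-fold (difference 0.78, adjusted p = 0.0129), although without wild type 2 or wild type 3 the adjusted p was 0.0577 or 0.0649. Its other probe sets had differences of 0.13 and 0.07. Ly6e, of the same protein family, had a difference of 0.54 with overlapping groups. At an unadjusted p under 0.05, 5 accessory genes were higher and 3 lower.

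Of the 30 genes measured that couple these receptors to their signals, 3 rose and 2 fell. Gnal, the G protein subunit that links striatal receptors to adenylyl cyclase, read 10.42, 10.15, 10.18 and 10.39 in null striatum and 11.08 in the heterozygote, against 11.10, 11.09 and 10.91 in wild type. The heterozygote stood with the wild type animals and all null animals were lower, 1.68-fold (difference -0.75, adjusted p = 0.0179). Its other probe sets, neither called, had differences of -0.47 and -0.07. Without null 2, wild type 2 or wild type 3 the adjusted p was 0.0694, 0.0751 or 0.0573. Adcy1, a calcium-stimulated adenylyl cyclase, was 1.94-fold lower, at 10.16 in null and 11.12 in wild type striatum (adjusted p = 0.0463), and its other probe set, not called, had -1.02.

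Gnaq, the subunit that links Chrm1, Hrh1 and the Htr2 class to phospholipase C, averaged 10.85 in null and 9.89 in wild type striatum, 1.94-fold higher (adjusted p = 0.0298), and 5 of its 7 probe sets were called higher. Gnai2, an inhibitory subunit used by the Htr1 class and Chrm4, averaged 10.98 in null and 10.35 in wild type striatum, 1.55-fold higher (adjusted p = 0.0206), and its other probe set, not called, had 0.61. Plcb4, a phospholipase C, was 1.71-fold higher on 1 of 5 probe sets (adjusted p = 0.0438). Each of Adcy1, Gnaq, Gnai2 and Plcb4 lost its call when null 1, null 2, wild type 2 or wild type 3 was left out (adjusted p between 0.0574 and 0.163), as did Adcy1 and Plcb4 without wild type 1 (0.0721 and 0.0643) and Plcb4 without null 4 (0.0552). S100a10, an adaptor that brings Htr1b to the cell surface, averaged 9.19 in null and 10.15 in wild type striatum, and its difference of -0.96 just missed the threshold (adjusted p = 0.0503).

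**Figure D3:**
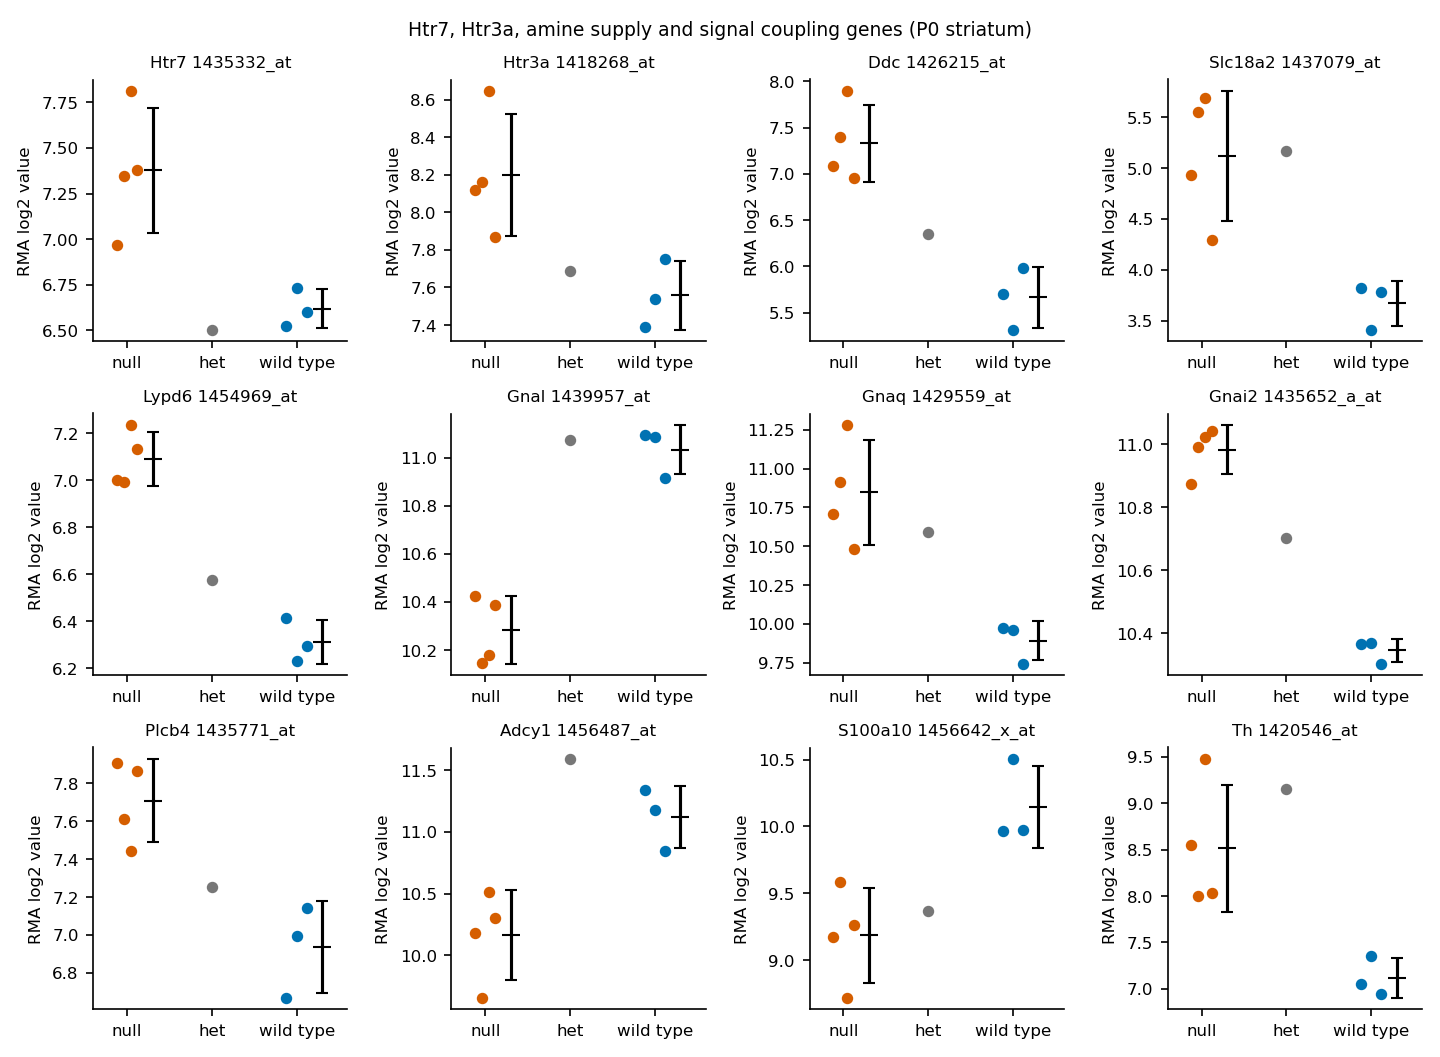
RMA log2 values by array for Htr7, Htr3a and 10 genes of amine supply, nicotinic accessory proteins and signal coupling (left to right in each panel: 4 null, 1 heterozygote and 3 wild type animals; bars are mean and SD where a group has over 1 animal). Ddc, Slc18a2, Lypd6, Gnaq, Gnai2 and Plcb4 lie higher in null, Gnal and Adcy1 lower, and Htr7, Htr3a, S100a10 and Th did not pass the threshold.

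Bcl11b itself checks the labels as far as its probe sets allow. All 4 were lower in null striatum, the brightest at 11.18 in null and 12.29 in wild type, and that of smallest p at 10.01 in null and 11.40 in wild type. Signal remained in all null animals, and the heterozygote, at 12.43 on the brightest, was at the wild type level. Array medians lay between 6.21 and 6.35. Precision is limited throughout by having only 7 arrays in the test.

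**Figure D4:**
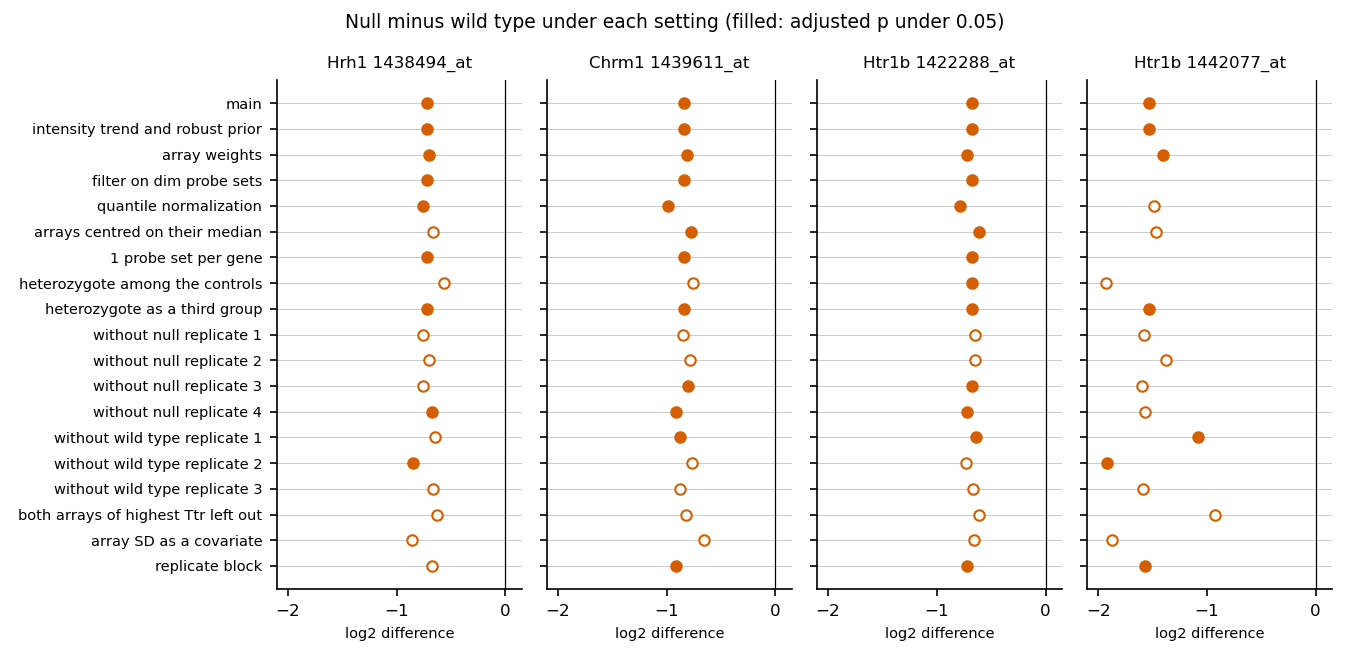
Log2 difference, null minus wild type, of the 4 called receptor probe sets under the deposited-value fit and each alternative that could be fitted (rows), with filled points where the adjusted p was under 0.05. All points lie left of 0, which was fixed in advance where arrays were only left out. Open points show the alternatives in which a probe set was not called.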

How the data were processed

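Affymetrix arrays measured striatal RNA of 8 newborn mice. The authors deposited log2 values per probe set, which RMA made, per the submitters' processing notes. RMA is built to subtract background, equalise array distributions and summarise probes, which compresses differences of dim probe sets. The deposited arrays were not fully equal, with medians of 6.21 to 6.35 and SDs of 1.84 to 2.06. The version of RMA is not stated in the sources used here. The values were used as deposited, and no column belonged to other samples.

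Probe sets were named through the platform annotation, and the receptors were picked by its symbols as they stand. For the pathway lists, the marker lists and Bcl11b, symbols were updated by Entrez ID against RefSeq. Of 45037 probe sets, 34945 carry 1 symbol, 932 several and 9160 none. Promoter stretches came from the RefSeq table of GRCm38.p6, which held 28 of the 37 receptor genes.

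Null and wild type arrays were compared with limma 3.58.1 in R 4.3.3 (lmFit, eBayes, 4 against 3 arrays, no covariate), with Benjamini-Hochberg adjustment over all probe sets, a threshold of 0.05 and 95% intervals. The script was tested on simulated data. Shared litters are not stated in the sources used here. Values gave no sign that the titles' replicate numbers pair the animals, which does not exclude a pairing. Dim means a mean below the median of all probe set means. Figures used matplotlib 3.10.9 in Python 3.11.15.

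The members, the 6 pathway lists, the 11 cell marker lists and the alternatives were chosen with earlier results of these data known. Any receptor could be named. Array values were given for each called receptor probe set, for the one of highest mean and of largest difference in each family, and for other probe sets of a called gene that differed in sign. Pathway genes were named where called, or where among the 2 largest differences of a list. Further supply genes, the called markers and some uncalled markers were added after values were seen. So were array values of Chrm4, Htr2c, Htr7 and the uncalled probe sets of Chrm1 and Hrh1. Markers of the oligodendrocyte precursor, microglia, cortical neuron and meninges lists were measured too, with no call among 5, 8, 6 and 4 members. At an unadjusted limma p under 0.05, 4 microglia markers were higher, 1 meninges marker was lower, and none of the cortical neuron or oligodendrocyte precursor markers passed. The 18 alternatives were array weights, a robust prior with an intensity trend, a filter on dim probe sets, quantile normalization, median centring, 1 probe set per gene, the heterozygote as a control or a group of its own, each array left out, null 2 and wild type 1 left out together, each array's SD as a covariate, and a replicate block.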

Additional observations from a re-analysis of the deposited data

Results flagged for a closer look

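On 6 of the 65 receptor probe sets, 1 of the 4 null animals stood farther from the others than Dixon's test allows at 95%, and chance alone gives about 1 in 20. Chrnb2 on 1436428_at read 8.27 in null 4, where the other null animals read 7.80 to 7.86. Htr1b on 1442077_at read 5.17 in null 2, where the others read 5.75 to 5.83, and without null 2 the adjusted p of that probe set was 0.142. Htr1d on 1440741_at read 5.73 in null 4, against 5.39 to 5.42. Htr1f on 1450548_at read 4.76 in null 3, against 5.13 to 5.18. Htr4 on 1427654_a_at read 5.45 in null 2, against 5.68 to 5.71. Htr5a on 1443276_at read 5.85 in null 2, against 6.14 to 6.17.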

How the results depend on the processing

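The 4 called receptor probe sets kept their sign in every alternative that could be fitted. Where arrays were only left out or weighted, the sign could not change, because the groups did not overlap on these probe sets. The intensity trend and array weights each called all 4. Giving the heterozygote a group of its own repeats the main fit by construction. A single array with its own term adds nothing to the null against wild type comparison. The number of lower receptor probe sets was 2 after median centring, 1 with the heterozygote as a control, and 0 without null 2 and wild type 1 or with the array SD as a covariate. With single arrays left out it ranged from 0 to 5, and the number of higher ones from 0 to 1. Over all probe sets 1044 were called, against 3651 with array weights, 672 with centring, 664 with 1 probe set per gene, 206 with the heterozygote as a control, 474 without null 2 and wild type 1, 282 with the SD covariate, and 292 to 2176 with single arrays left out. Of the pathway genes 8 were called, against 15 with array weights, 5 with quantile normalization, 5 with centring, 3 with the heterozygote as a control, 0 without null 2 and wild type 1, 1 with the SD covariate, and 1 to 10 with single arrays left out. Chrnb2 on 1436428_at changed sign, with -0.034 under array weights, -0.094 under quantile normalization and -0.091 to 0.068 with single arrays left out. Some of these fits hold fewer animals or features, and the causes of the changed counts were not tested.

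Same-numbered null and wild type arrays did not deviate together (r = -0.25, -0.31 and -0.17). The values thus gave no sign of a pairing, but so few arrays cannot exclude one. With the replicate block, 1 receptor probe set was called higher (Htr3a, adjusted p = 0.0408), 3 were lower, Hrh1 1438494_at was not called (0.0595), Chrnb2 1436428_at stood at -0.091, and 1908 probe sets were called. Replicate 4 has no wild type array, so null 4 has no part in the differences of this fit. They equal those without null 4, as for Htr3a (0.75 in both), so the block is not a separate check. With 45 of 65 receptor probe sets dim, signal over background limits most of these values. With 7 arrays, the unadjusted confidence intervals of the receptors had a median half-width of 0.31. The calls in the main fit, made on adjusted p, were all of larger differences. The smallest in size was -0.68 (Htr1b 1422288_at), and 0.76 (Htr7 1435332_at) was not called. A receptor without a call may therefore still differ.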
